A study of Mus musculus with 96 samples.

Results

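The 38 genes described here encode the chaperones, disulfide isomerases and degradation machinery of the endoplasmic reticulum (ER). They were taken by symbol from a fixed list, which was chosen with earlier results of these data known. All 38 were found among 13094 entries of the deposited gene table and among the 9901 with a mean of at least 1 FPKM. They were followed through 48 h in livers that lack Rbbp5 in hepatocytes and in livers that keep it. Rbbp5 is a core subunit of the complexes that methylate lysine 4 of histone H3. The LKO mice carried Rbbp5 (flox/flox) and Alb-CRE (+/-), with Cre driven by the albumin promoter, which is active in hepatocytes. Whether other liver cells kept the gene was not measured. The Flox mice were Rbbp5 (flox/flox); Alb-CRE (-/-) littermates, titled WT, so floxed alleles were common to both groups. All were male C57BL/6J mice of 3 to 4 months. They were entrained to a 12 h light, 12 h dark cycle (2 weeks) and released into constant darkness for 24 h, with free access to food. Sampling ran from circadian time (CT) 0 to CT46 at intervals of 2 h, with 2 libraries per genotype and time and 48 per genotype. FPKM counts the fragments of a gene relative to its transcript length and to the size of the library, so levels can be compared between genes per length.

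Proteins that enter the ER are folded by the Hsp70 chaperone BiP (Hspa5) and its cofactors, by the lectin chaperones calnexin and calreticulin, and by disulfide isomerases. Proteins that fail to fold are recognised by lectins, carried through a membrane channel built around the ubiquitin ligase Syvn1 (Hrd1) and pulled out by the ATPase Vcp, which is ER-associated degradation (ERAD). When unfolded proteins accumulate, the unfolded protein response raises many of these genes through the transcription factors Atf6 and Xbp1. In the liver, whose hepatocytes secrete most plasma proteins, genes of this response have been described as oscillating with a period of 12 h.

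The promoters show what many of these genes share besides function. Atf6 binds, with the factor NF-Y, to the ER stress response element, which is CCAAT, 9 bases and CCACG on either strand. In RefSeq promoter windows (build GRCm38.p6, 250 bases before to 50 after the start) 34 of 38 genes were matched, and Hyou1, Manf, Derl1 and Erlec1 were not matched. The element was present in 9 of 34, or 26.5%, against 0.137% of 27025 genes with such windows. The 9 were Hspa5, Hsp90b1, Calr, Canx, Creld2, Dnajc3, Ero1lb, Pdia6 and Syvn1. A second form, ATTGG, 1 base and CCACG, was present for Dnajb11 and Herpud1 and in 0.0444% of all genes. The core TGACGTGG, whose last 5 letters can overlap the reverse of a CCACG part, was present for Txndc11, Txndc5 and Vcp and in 0.714% of all genes. The single parts are common by comparison: CCACG was present in 29 of 34 genes and in 35.5% of all genes, and CCAAT in 27 of 34 and in 41.1%. The following stretches are shown because these genes are described below by their 12 h terms or their first-day levels. Capitals mark both parts of the element, lower case is the sequence around and between them, and each is written on the gene's own strand.
Hspa5, chr2:34772019-34772049, plus strand: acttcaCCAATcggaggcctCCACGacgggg
Creld2, chr15:88819514-88819544, plus strand: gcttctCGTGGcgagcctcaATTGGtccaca
Syvn1, chr19:6046526-6046556, plus strand: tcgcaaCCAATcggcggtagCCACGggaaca
Canx, chr11:50325794-50325824, minus strand: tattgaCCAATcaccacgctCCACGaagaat
Dnajc3, chr14:118937821-118937851, plus strand: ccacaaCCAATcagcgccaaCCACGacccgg
Herpud1, second form, chr8:94386371-94386393, plus strand: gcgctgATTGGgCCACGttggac
Creld2 holds the element in the reverse direction, so its capitals read CGTGG and ATTGG. The 12 h terms in Flox liver, described further on, passed for 3 of the 9 genes with the element and for 3 of the 25 matched genes without it. Hyou1 and Manf also passed but were not matched, so they fall outside this split. The 25 include Dnajb11 and Herpud1 with the second form, and Txndc11, Txndc5 and Vcp with the core. Of these, Txndc11 and Txndc5 passed. From CT0 to CT4, 4 of the 9 were lower in LKO liver, against 12 of the 25. A match is a match of letters and was not tested for binding.

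Rbbp5, the targeted gene, averaged 2.46 ± 0.77 FPKM in LKO liver and 3.27 ± 0.59 FPKM in Flox liver (SD, n = 48 each). It was lower in LKO at 19 of 24 times, with a log2 fold change of -0.32 (limma, adjusted p = 2.43e-07). The 6 libraries labelled LKO at CT42 to CT46 went against their label. There Rbbp5 ran from 3.13 to 4.23 FPKM with a median of 3.92, against 1.55 to 3.56 with a median of 2.69 in Flox. The summed level of 9 alveolar macrophage markers of a list of 14 was 5185 to 10495 FPKM in those 6 libraries, against 20.7 to 127 in the other 42 LKO libraries and 19.4 to 84.4 in all Flox libraries. No marker of that list in the table was at 0 in any library. Summed hepatocyte markers (10 of 10) were 20498 to 31382 FPKM in those 6, against 28801 to 51940 in the other LKO libraries and 30626 to 56103 in Flox libraries. Cholangiocyte markers (6 of 7) had a median sum of 359 FPKM in those 6 libraries and 79.0 in the other LKO libraries, against 28.5 in Flox to CT40 and 32.8 in Flox from CT42. The part of these cells in the results was not tested, and values without those libraries are given beside the counts and the calls they change. In whole liver, fewer cells of a type and less RNA per cell cannot be told apart.

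In Flox liver 8 of the 38 genes had 12 h terms that passed the test, 21.1% against 1.78% of all 9901 genes. They were Hspa5, Hyou1 (the exchange factor that resets BiP), Manf (a small secreted protein that binds BiP), Creld2 (an ER protein induced by stress), the disulfide isomerases Pdia4, Txndc5 and Txndc11, and the ligase Syvn1. Fitted peaks lay from CT 1.78 for Syvn1 to CT 3.34 for Pdia4 and 12 h later, with the exception of Txndc11 at CT 11.8. In LKO liver 3 of 38 passed, Creld2, Manf and Syvn1, against 9.42% of all genes. Without the libraries labelled LKO at CT42 to CT46 none of the 38 passed in LKO, against 0.0404% of all genes. The list was chosen with earlier results of these data known, so these shares describe it and do not test it.

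**Figure D1:**
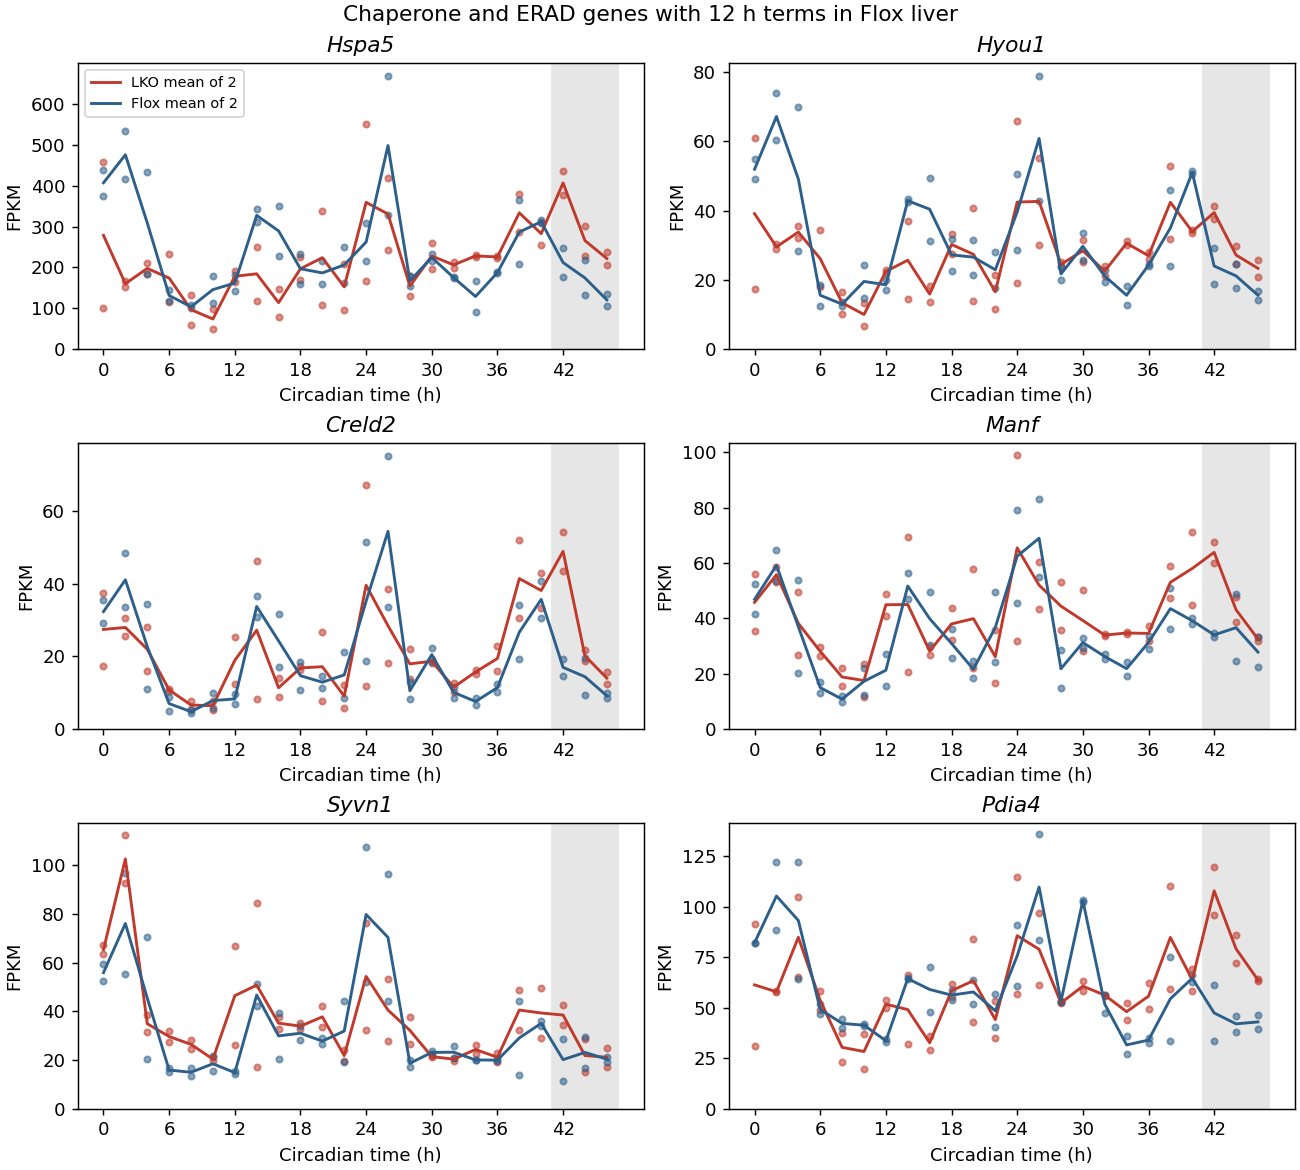
FPKM (vertical, linear) against circadian time in hours for Hspa5, Hyou1, Creld2, Manf, Syvn1 and Pdia4. Points are single libraries, lines the mean of 2, LKO in red and Flox in blue, and grey marks CT42 to CT46. The highest Flox mean of each gene lies at CT2, CT24 or CT26, and Flox means are low at CT8.

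Hspa5 (chr2:34771970-34777547, plus strand, mm10, GENCODE M21), whose product BiP binds unfolded chains, had 168 and 153 FPKM in LKO and 417 and 534 FPKM in Flox at CT2. At CT8 it had 133 and 60.5 FPKM in LKO and 108 and 100.2 FPKM in Flox. At CT14 it had 119 and 250.2 FPKM in LKO and 312 and 342 FPKM in Flox. At CT26 it had 244 and 418 FPKM in LKO and 328 and 669 FPKM in Flox. The Flox libraries were thus high at CT2, CT14 and CT26 and low at CT8, and at CT2 and CT14 the genotypes did not overlap. The fitted 12 h amplitude, the distance from mid-level to peak, was 0.18 ± 0.12 in LKO and 0.64 ± 0.12 in Flox (log2, SE), which passed in Flox (limma, adjusted p = 0.00196) and not in LKO (adjusted p = 0.561). From trough to peak this is 1.29-fold in LKO and 2.41-fold in Flox. The LKO value depended on the libraries used: the amplitude was 0.28 (1.47-fold) without those labelled LKO at CT42 to CT46, 0.33 with the letter A left out and 0.04 with the letter B left out, and none of these passed.

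Hyou1 had 28.9 and 30.2 FPKM in LKO and 60.4 and 73.9 FPKM in Flox at CT2. At CT8 it had 16.6 and 10.2 FPKM in LKO and 13.6 and 12.5 FPKM in Flox. The genotypes were apart at CT2 and overlapped at CT8. Its amplitude was 0.32 ± 0.11 in LKO (adjusted p = 0.0961) and 0.68 ± 0.11 in Flox (limma, adjusted p = 4.86e-05).

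Creld2 had the largest 12 h amplitude of the 38 in each genotype. It had 25.5 and 30.4 FPKM in LKO and 33.6 and 48.4 FPKM in Flox at CT2, and 7.77 and 5.41 FPKM in LKO and 5.26 and 4.28 FPKM in Flox at CT8. The genotypes were apart at CT2 in favour of Flox and at CT8 in favour of LKO. Over the first day the highest time mean was 4.36 times the lowest in LKO, against 8.60 times in Flox. Its amplitude was 0.58 ± 0.14 in LKO (adjusted p = 0.0164) and 0.87 ± 0.14 in Flox (limma, adjusted p = 4.86e-05).

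Manf had 53.0 and 58.5 FPKM in LKO and 53.5 and 64.8 FPKM in Flox at CT2, and 22.1 and 15.5 FPKM in LKO and 11.9 and 9.70 FPKM in Flox at CT8. Here the genotypes overlapped at the peak, and at CT8 LKO was the higher in both libraries. The amplitude was 0.36 ± 0.10 in LKO (adjusted p = 0.0426) and 0.58 ± 0.10 in Flox (limma, adjusted p = 0.000722). Syvn1, the catalytic subunit of the ERAD ligase, had nearly the same amplitude in both, 0.50 ± 0.11 in LKO (adjusted p = 0.0158) and 0.56 ± 0.11 in Flox (limma, adjusted p = 0.00576), with peaks at CT 2.24 and CT 1.78. Txndc5, a thioredoxin-like isomerase, had smaller 12 h terms, at 0.10 ± 0.04 in LKO (adjusted p = 0.213) and 0.20 ± 0.04 in Flox (limma, adjusted p = 0.00485). Pdia4 had 0.18 in LKO and 0.40 in Flox, and Txndc11, a thioredoxin-domain protein of the ER membrane, 0.16 in LKO and 0.34 in Flox.

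**Figure D2:**
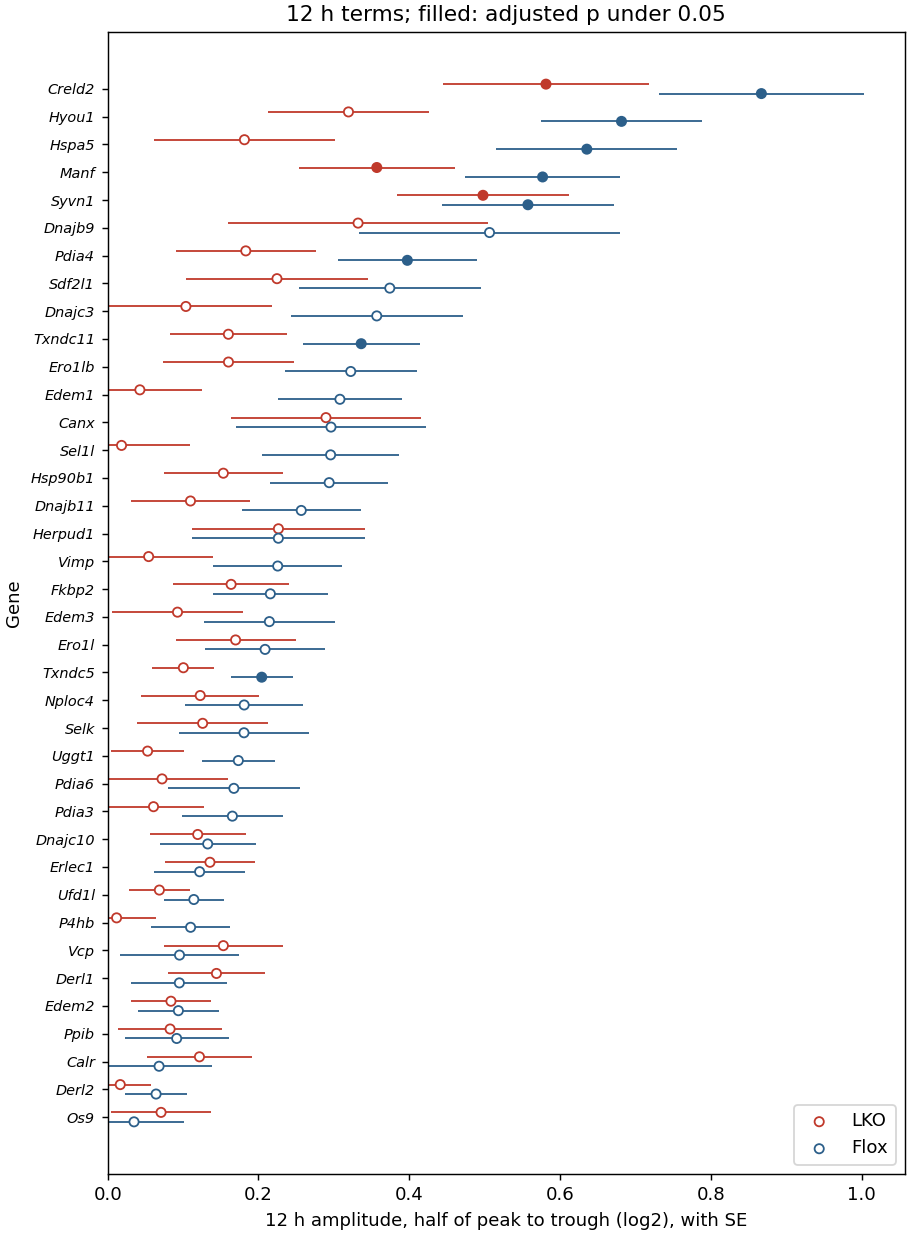
Fitted 12 h amplitude (log2, horizontal, with SE) of each of the 38 genes, LKO above Flox, ordered by the Flox value. Filled points passed the test, 3 in LKO and 8 in Flox, and the LKO point lies left of the Flox point in 32 of 38 genes.

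Across all 38 genes the 12 h amplitude was lower in LKO than in Flox in 32, and in 33 without the libraries labelled LKO at CT42 to CT46. Of all genes 45.7% had a lower amplitude in LKO with all libraries, and the all-gene share without those libraries was not computed. The median amplitude of the 38 was 0.124 in LKO and 0.215 in Flox, against 0.111 and 0.102 for all genes in the same order. The test of the difference takes the cosine and sine terms together, so it covers amplitude and peak time at once. It passed for 0 of 38 genes and for 0% of all genes (limma). At an unadjusted p under 0.05 it was 10 of 38 and 25.8% of all genes. Amplitude alone was not tested, so a lower amplitude was not shown for any single gene. The smallest p-values were those of Ero1l, Dnajb9, Fkbp2 and Uggt1, each with an adjusted p of 0.130. Their fitted peaks, in that order, lay at CT 8.47, 9.45, 2.95 and 7.36 in LKO and at CT 2.69, 2.04, 10.6 and 2.88 in Flox. From CT24 to CT46 alone, which includes the libraries labelled LKO at CT42 to CT46, the difference passed for 15 of 38 genes, against 46.8% of all genes.

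The 8 calls in Flox needed both libraries of each time. With the letter A or the letter B left out, which leaves 1 library at nearly every time, none of the 38 passed in either genotype, against 0.0707% and 0.0606% of all genes in Flox. The Flox amplitude of Hspa5 was then 0.64 and 0.66. From CT0 to CT22 alone Hyou1, Creld2 and Manf passed in Flox, against 0.242% of all genes. From CT24 to CT46 alone 16 genes passed, against 21.5% of all genes. Without CT42 to CT46 of both genotypes Hspa5, Hyou1, Creld2 and Manf passed, against 1.19% of all genes. Hyou1 and Creld2 passed in Flox in each of these 3 spans.

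The fitted 12 h peak lay between CT 1 and CT 5 for 23 of 38 genes in LKO, against 29.4% of all genes there, and for 29 of 38 in Flox, against 55.8% of all genes. Dnajb9, the BiP cofactor ERdj4, had its fitted peak at CT 9.45 in LKO and CT 2.04 in Flox, and passed in neither (adjusted p = 0.388 and 0.203). Fitted times of genes that did not pass are loosely set, and the range was chosen after the peaks were seen.

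**Figure D3:**
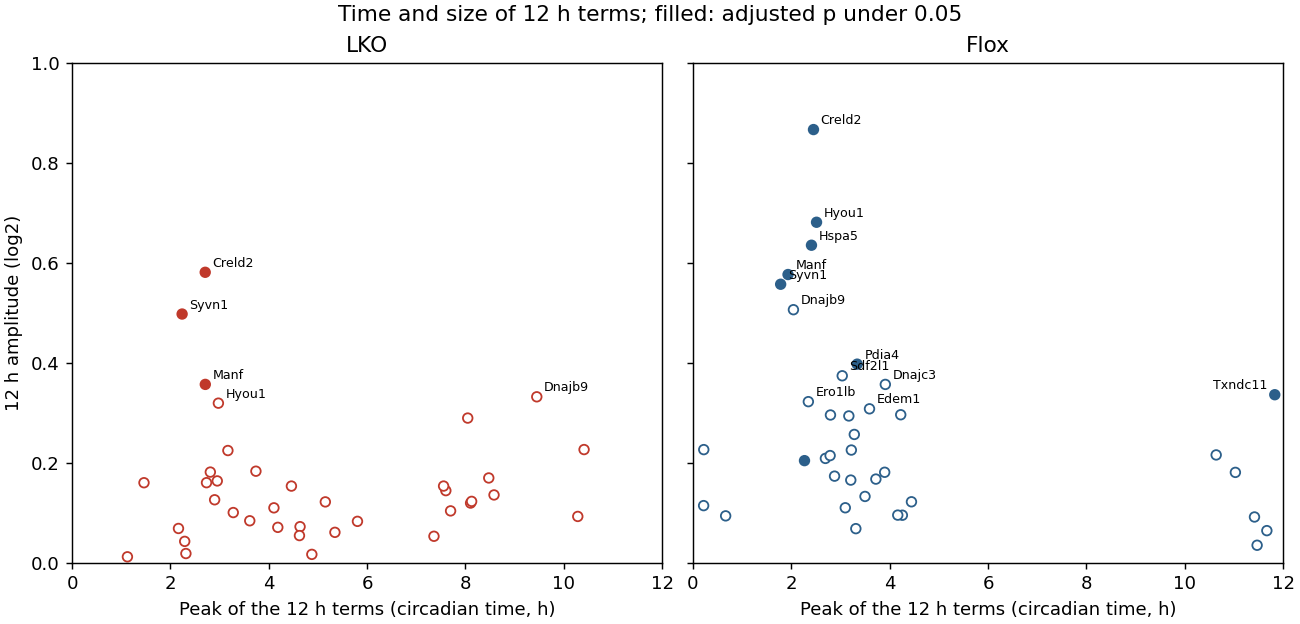
Fitted 12 h amplitude (log2, vertical) against the fitted peak in circadian hours for the 38 genes, LKO on the left and Flox on the right. Filled points passed the test, and names are given from an amplitude of 0.3 upward. The Flox calls sit near CT2 to CT3 with Txndc11 at CT 11.8, and the 3 LKO calls sit between CT 2.24 and CT 2.71.

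A 24 h term was more common than a 12 h term, but no more so than in other genes. In Flox 11 of 38 passed (28.9% against 27.3% of all genes). Syvn1, Sdf2l1 (a partner of the cofactor Dnajb11), Pdia4, Manf, Hsp90b1 (the ER Hsp90, GRP94), Calr and Creld2 peaked between CT 21.3 and CT 3.57, across subjective dawn. Herpud1, a stress-induced scaffold of the ERAD ligase, Erlec1, a lectin that reads trimmed glycans, Vcp and its adaptor Nploc4 peaked between CT 7.59 and CT 11.9. In LKO 7 of 38 passed (18.4% against 49.5% of all genes): Herpud1, Txndc5, Sdf2l1, Dnajc10, Ero1l, Pdia4 and Txndc11. Of these, 3 passed in LKO without the libraries labelled LKO at CT42 to CT46, namely Herpud1, Dnajc10 and Txndc5 (7.89% against 26.7% of all genes). Hspa5 had a 24 h amplitude of 0.30 in LKO and 0.30 in Flox and passed in neither, and its LKO value was 0.16 without the libraries labelled LKO at CT42 to CT46.

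Herpud1 kept its 24 h term in LKO. Its time means on the first day ran between 35.3 FPKM at CT2 and 138 FPKM at CT14 in LKO, and between 85.7 FPKM at CT4 and 207 FPKM at CT12 in Flox. The amplitude was 0.54 ± 0.11 with a peak at CT 10.9 in LKO (adjusted p = 0.00034) and 0.50 ± 0.11 with a peak at CT 11.9 in Flox (limma, adjusted p = 0.00159). Sdf2l1 had 0.45 ± 0.12 in LKO and 0.54 ± 0.12 in Flox, and both passed (limma, adjusted p = 0.00544 and 0.00119). The difference of 24 h terms between genotypes passed for 1 of 38 genes, against 19.9% of all genes. This was Dnajc10, the disulfide reductase ERdj5, with an amplitude of 0.22 and a peak at CT 15.5 in LKO and an amplitude of 0.13 and a peak at CT 7.92 in Flox (limma, adjusted p = 0.0370). Without the libraries labelled LKO at CT42 to CT46 it did not pass (adjusted p = 0.298).

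Over all times the level of 17 of the 38 genes differed between genotypes, and the list did not move one way. In LKO 8 were higher, 21.1% against 39.4% of all genes, and 9 were lower, 23.7% against 19.1%. The median log2 fold change was -0.03 for the 38 and 0.07 for all genes. Without the libraries labelled LKO at CT42 to CT46, 7 were higher and 13 lower, against 31.7% and 30% of all genes, with medians of -0.13 and -0.0020. Scaling each library by its median ratio to the others, which moved the all-gene median to -0.03, gave 6 higher and 22 lower, against 28.1% and 35.8% of all genes. Quantile normalization gave 9 and 15, against 28.2% and 37%. With the letter A left out 7 were higher and 5 lower (28% and 14% of all genes). With the letter B left out 5 (Selk, Fkbp2, Dnajc10, Edem2 and Ufd1l) were higher and 2 (Herpud1 and Vcp) lower, against 21% and 7.96% of all genes.

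The largest rises were those of Selk, Fkbp2, Txndc11 and Dnajc10. Selk (chr14:29968308-29975662, plus strand), a selenoprotein of the ERAD complex, had 23.2 to 82.5 FPKM with a median of 46.1 in LKO, against 21.0 to 63.4 with a median of 30.8 in Flox. The ranges overlapped. Its log2 fold change was 0.53 ± 0.09 (SE; limma, adjusted p = 9.46e-07), higher at 19 of 24 times. Fkbp2, a prolyl isomerase of the ER lumen, had 44.9 to 122 FPKM with a median of 76.2 in LKO, against 32.1 to 110 with a median of 55.1 in Flox, again overlapping, with a log2 fold change of 0.44 ± 0.08 (limma, adjusted p = 6.46e-06). Txndc11 was higher by 0.38 ± 0.08 and Dnajc10 by 0.32 ± 0.06 on the log2 scale (limma, adjusted p = 5.68e-05 and 4.25e-06). Calr, Manf, the mannosidase-like Edem2 and the Vcp adaptor Ufd1l were the other 4, with log2 fold changes between 0.21 and 0.31, and Calr and Manf did not pass with median-ratio scaling. Calr also did not pass without the libraries labelled LKO at CT42 to CT46 (adjusted p = 0.1004). From CT24 to CT46 alone Selk and Fkbp2 did not pass, and from CT0 to CT22 alone Dnajc10 did not, while Txndc11 passed in each. From CT24 to CT40 Selk averaged 39.6 ± 11.5 FPKM in LKO and 36.2 ± 10.7 FPKM in Flox (SD, n = 18 each).

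Herpud1 (chr8:94386438-94395377, plus strand) was the gene most reduced. It had 26.9 to 185 FPKM with a median of 67.7 in LKO, against 41.8 to 227 with a median of 125 in Flox. The ranges overlapped, and the LKO mean was lower at 20 of 24 times. Its log2 fold change was -0.71 ± 0.11 (SE; limma, adjusted p = 4.33e-08), and -0.75 without the libraries labelled LKO at CT42 to CT46. Dnajc3, the BiP cofactor p58IPK, averaged 20.5 FPKM in LKO and 27.6 FPKM in Flox, a log2 fold change of -0.46 ± 0.12 (limma, adjusted p = 0.000576). The extraction genes Nploc4 and Vcp were lower by -0.35 ± 0.08 and -0.29 ± 0.08 (limma, adjusted p = 0.000243 and 0.00214), while their partner Ufd1l was higher by 0.21 ± 0.04 (adjusted p = 1.61e-05). P4hb (protein disulfide isomerase), Edem1, Derl1, Derl2 and Erlec1 completed the lower genes. Derl2 did not pass without the libraries labelled LKO at CT42 to CT46 (adjusted p = 0.239), with the letter A, B or C left out, or with the letters as a block. Hspa5 itself averaged 220 ± 107 FPKM in LKO and 237 ± 120 FPKM in Flox (SD, n = 48 each), a log2 fold change of -0.12 ± 0.12 that did not pass (limma, adjusted p = 0.372). From CT24 to CT46 alone, with the libraries labelled LKO at CT42 to CT46 included, the log2 fold changes of Dnajc3, Nploc4 and Vcp were 0.03, 0.0023 and 0.10. From CT24 to CT40 their means were still lower in LKO, by less than the spread (SD, n = 18 each). Dnajc3 averaged 25.0 ± 7.74 FPKM in LKO and 27.7 ± 10.4 FPKM in Flox, and Nploc4 9.77 ± 2.48 and 10.4 ± 2.93 FPKM. Vcp averaged 53.3 ± 10.4 FPKM in LKO and 56.1 ± 11.1 FPKM in Flox. The change between windows, over all 8, passed the test for each of these genes (limma, adjusted p = 8.67e-05, 5.07e-05 and 5.21e-06).

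These all-time values sum over windows of unlike sign. With 6 LKO and 6 Flox libraries in each window of 3 times, an equal genotype difference in all 8 windows was rejected for 28 of 38 genes, against 80.6% of all genes. Without the libraries labelled LKO at CT42 to CT46 it was 18 of 38, against 57% of all genes. From CT0 to CT4, 3 genes were higher and 19 lower in LKO, against 10.9% and 41.6% of all genes. From CT6 to CT10, 4 were higher and 13 lower (17% and 31% of all genes), and from CT12 to CT16, 5 and 14 (18.3% and 21%). These first-day calls depended on which letter was left out. With the letter A left out none was called from CT0 to CT4 in either direction, and with the letter B left out none from CT6 to CT16. The reverse did not hold. From CT0 to CT4 Dnajc3 had a log2 fold change of -1.82 without B (limma, adjusted p = 0.00128) and -1.03 without A. From CT6 to CT10 it had -1.75 without A (limma, adjusted p = 0.000105) and -0.66 without B. From CT18 to CT22 no gene of the 38 was called (0.535% and 0.232% of all genes), nor from CT24 to CT28 (1.53% and 0.394%). From CT30 to CT34, 1 was higher and none lower (5% and 0.727%). From CT36 to CT40, 7 were higher and 2 lower (32% and 5.64%), and from CT42 to CT46, 21 and 1 (59.1% and 10.8%).

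**Figure D4:**
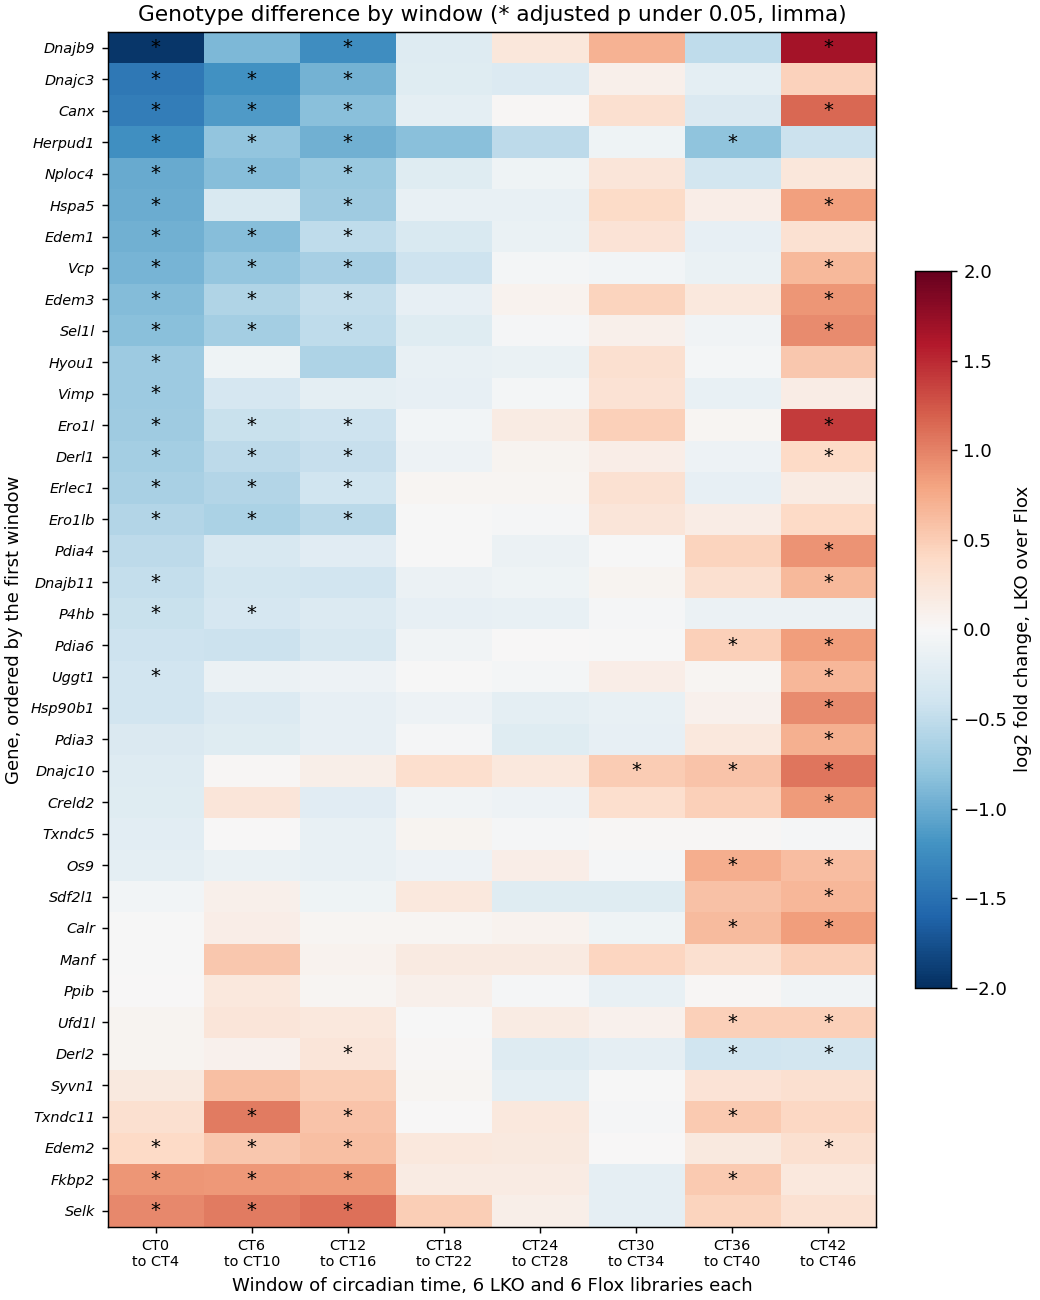
Log2 fold change of LKO over Flox (colour, red higher in LKO and blue lower) for the 38 genes in 8 windows of circadian time. Stars mark an adjusted p under 0.05. The first 3 windows hold most of the lower calls, and the last holds 21 higher calls on the deposited scale, against 3 higher and 12 lower after median-ratio scaling.

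On the deposited scale the members' median log2 fold change lay close to that of all genes in the last window and below it in the first. From CT0 to CT4 it was -0.43 for the 38 and -0.21 for all genes, and from CT12 to CT16 it was -0.23 and -0.05. From CT42 to CT46 it was 0.51 and 0.49, and 19 of 38 genes lay above the all-gene median there. With median-ratio scaling these medians were -0.20 and -0.10, and 17 of 38 genes lay above. With quantile normalization they were 0.04 and -0.19, and 27 of 38 genes lay above. With median-ratio scaling, which moved the all-gene median of that window to -0.10, 3 genes were higher and 12 lower (30.3% and 37.8% of all genes), and with quantile normalization 12 and 6 (24.9% and 43.4%). From CT36 to CT40 median-ratio scaling gave 2 higher and 9 lower (14.6% and 20.4%), and quantile normalization 4 and 5 (16.7% and 19.9%). From CT0 to CT4 median-ratio scaling gave 6 higher and 14 lower (24.7% and 27.3%), and quantile normalization 6 and 15 (26.3% and 29.9%). From CT6 to CT10 median-ratio scaling gave 6 higher and 12 lower (24.1% and 27.7%), and quantile normalization 7 and 13 (26.4% and 28%). Among all genes lower calls outnumbered higher ones in each of these 4 windows under both scalings.

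Hspa5 was among the 19 genes lower from CT0 to CT4. There it had 99.8 to 457 FPKM with a median of 176 in LKO, against 184 to 534 with a median of 426 in Flox. The ranges overlapped through the LKO library of CT0 with the letter B, at 457 FPKM, while the other 5 were at or below 211. Its log2 fold change was -0.997 ± 0.29 (SE; limma, adjusted p = 0.00324). With the letter A left out the value was -0.91 and did not pass (adjusted p = 0.183). From CT12 to CT16 it was -0.71 (adjusted p = 0.0420), which did not pass with either letter left out (adjusted p = 0.386 and 0.175). From CT42 to CT46 it was 0.82 (adjusted p = 0.00915), which fell to 0.07 with median-ratio scaling and did not pass (adjusted p = 0.838).

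Dnajb9 had 3.56 to 42.9 FPKM with a median of 4.04 in LKO, against 10.5 to 43.6 with a median of 35.4 in Flox, from CT0 to CT4. Apart from the LKO library of CT0 with the letter B, all LKO values lay below all Flox values. The log2 fold change was -1.95 ± 0.40 (limma, adjusted p = 0.000178), and it did not pass with the letter A left out (-1.51, adjusted p = 0.183). From CT12 to CT16 the ranges were apart, 3.46 to 15.7 FPKM in LKO and 17.5 to 37.9 FPKM in Flox (limma, log2 fold change -1.24, adjusted p = 0.0123). From CT42 to CT46 they were apart the other way, 25.2 to 38.9 FPKM in the libraries labelled LKO and 3.60 to 14.3 FPKM in Flox (limma, log2 fold change 1.66, adjusted p = 0.00021), and 0.95 with median-ratio scaling. Dnajc3 had 5.73 to 35.1 FPKM with a median of 12.9 in LKO, against 31.5 to 49.3 with a median of 36.4 in Flox, from CT0 to CT4. Its log2 fold change was -1.42 ± 0.28 there (limma, adjusted p = 0.000125) and -1.21 from CT6 to CT10 (adjusted p = 0.000663).

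Canx, the membrane lectin chaperone, had 9.40 to 52.5 FPKM with a median of 15.1 in LKO, against 38.8 to 43.9 with a median of 40.7 in Flox, from CT6 to CT10. The ranges overlapped through the highest LKO library. The log2 fold change was -1.13 ± 0.31 (limma, adjusted p = 0.00254), and -0.46 with the letter B left out, which did not pass (adjusted p = 0.698). Herpud1 had 42.1 to 150 FPKM with a median of 104 in LKO, against 108 to 227 with a median of 188 in Flox, from CT12 to CT16, a log2 fold change of -0.96 ± 0.29 (limma, adjusted p = 0.00781). Edem1, Edem3, Sel1l (the partner of Syvn1), Derl1, Erlec1, Vcp and Nploc4, and the oxidases Ero1l and Ero1lb that drive disulfide formation, were lower in each of the 3 windows, with log2 fold changes between -0.40 and -1.004.

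A few genes were higher in LKO in the same windows. Selk had 27.98 to 82.5 FPKM with a median of 65.6 in LKO, against 21.3 to 31.6 with a median of 28.4 in Flox, from CT0 to CT4 (limma, log2 fold change 0.96, adjusted p = 0.000444). From CT12 to CT16 its ranges were apart, 44.5 to 71.0 FPKM in LKO and 21.0 to 35.7 FPKM in Flox, a log2 fold change of 1.11 ± 0.22 (limma, adjusted p = 0.000286). Fkbp2 was apart in both windows, 49.8 to 122 FPKM in LKO and 42.4 to 46.2 FPKM in Flox from CT0 to CT4, and 87.5 to 117 FPKM in LKO and 48.6 to 71.6 FPKM in Flox from CT12 to CT16 (limma, log2 fold changes 0.89 and 0.85, adjusted p = 0.000424 and 0.00138). Txndc11 was apart from CT6 to CT10, 16.9 to 27.3 FPKM in LKO and 8.52 to 13.1 FPKM in Flox, a log2 fold change of 1.04 ± 0.22 (limma, adjusted p = 0.000308). The early Selk and Fkbp2 calls did not pass with the letter A left out (adjusted p = 0.211 and 0.237).

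**Figure D5:**
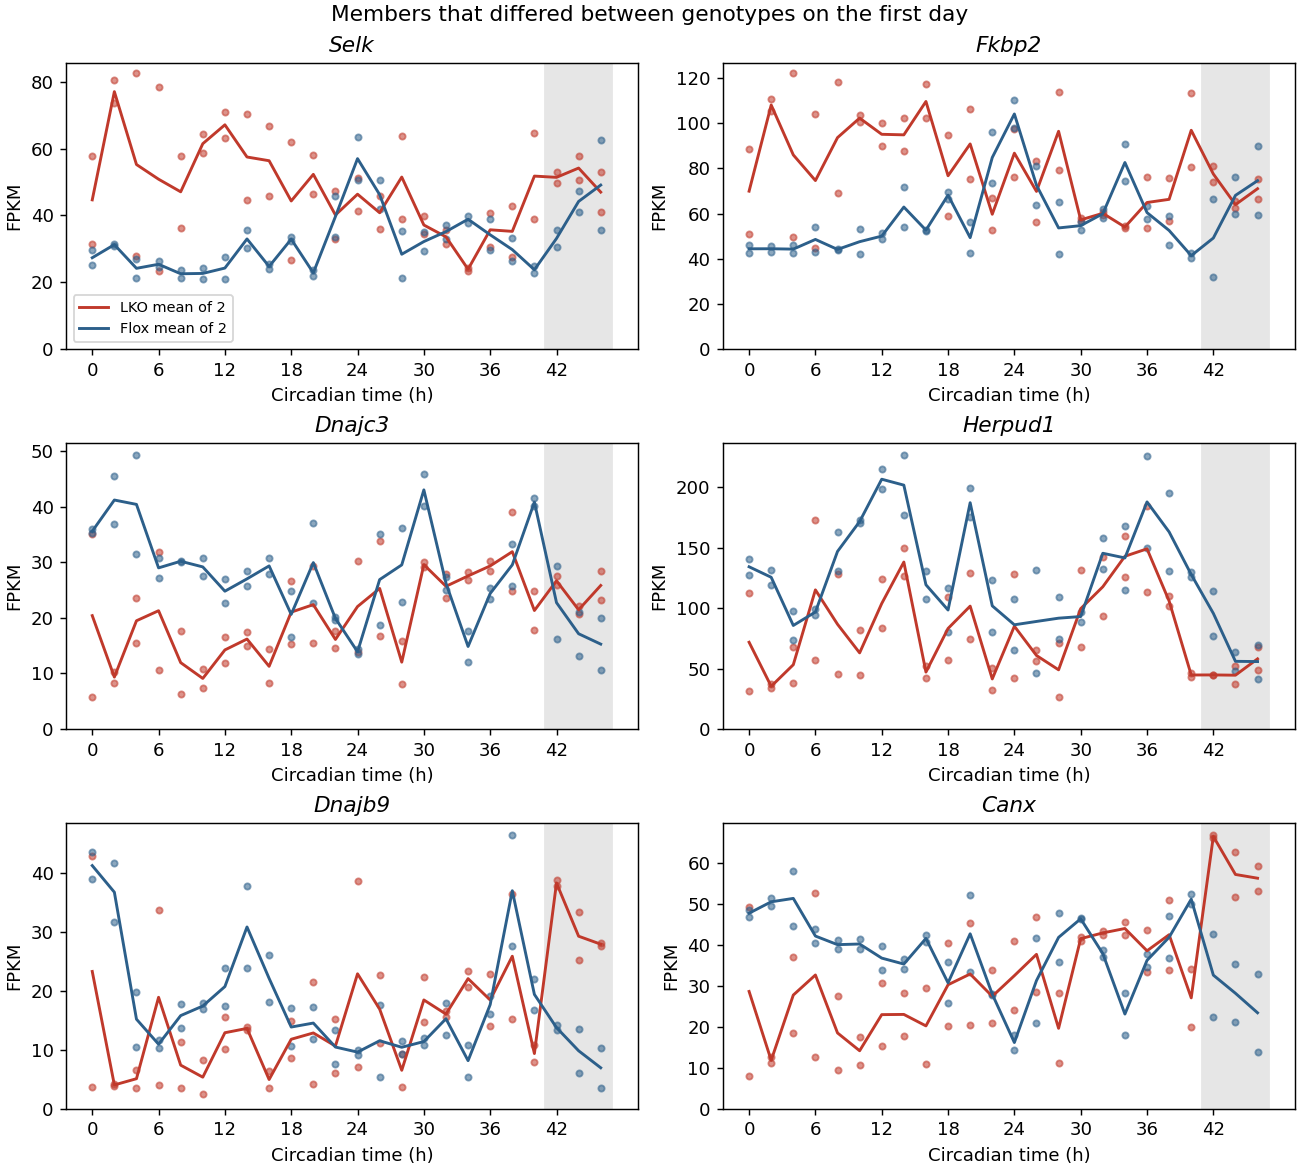
FPKM (vertical, linear) against circadian time in hours for Selk, Fkbp2, Dnajc3, Herpud1, Dnajb9 and Canx. Points are single libraries, lines the mean of 2, LKO in red and Flox in blue, and grey marks CT42 to CT46. Selk and Fkbp2 lie higher and Dnajc3, Herpud1 and Canx lower in LKO through most of the first day.

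Other measures moved in the same libraries. From CT0 to CT22 the ribosomal RNA precursor Rn45s averaged 4500 ± 5091 FPKM in LKO and 1407 ± 475 FPKM in Flox (SD, n = 24 each). From CT42 to CT46 it averaged 3258 ± 1044 FPKM in the libraries labelled LKO and 7049 ± 6075 FPKM in Flox (SD, n = 6 each), the opposite order. Transcript length moved with the differences: across the 38 genes the rank correlation of length with the log2 fold change was -0.45 from CT0 to CT4 and 0.24 from CT42 to CT46, against -0.38 and 0.27 across 9566 genes with a length. These points share their libraries. The 19 genes lower in LKO from CT0 to CT4 had a median transcript length of 4121 bases, the 3 higher ones 1678 bases and the 16 not called 2513 bases, against 2898 bases for all genes. The part of Rn45s and of length in these differences was not tested.

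On the second day fewer differences were called to CT40. Dnajc10 was the only gene called from CT30 to CT34, with 3.61 to 6.11 FPKM in LKO and 2.10 to 4.34 FPKM in Flox (limma, log2 fold change 0.50, adjusted p = 0.00439). From CT36 to CT40 Os9, like Erlec1 an ERAD lectin, had 52.1 to 90.8 FPKM in LKO and 38.9 to 52.4 FPKM in Flox. These ranges overlapped only at the edge (limma, log2 fold change 0.73, adjusted p = 0.000125). Calr, the soluble lectin chaperone, had 287 to 555 FPKM in LKO and 237 to 312 FPKM in Flox (limma, log2 fold change 0.63, adjusted p = 0.00099), and 0.34 with median-ratio scaling, which did not pass (adjusted p = 0.0751). Derl2, a channel component of ERAD, was apart at 11.4 to 14.9 FPKM in LKO and 15.3 to 20.1 FPKM in Flox (limma, log2 fold change -0.39, adjusted p = 0.00105), and Herpud1 was lower by -0.81 (adjusted p = 0.0213). With the letter B left out 1 gene was higher and none lower from CT36 to CT40, and Dnajc10 did not pass from CT30 to CT34 (adjusted p = 0.394).

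From CT42 to CT46 Ero1l, an oxidase that is also induced by hypoxia, had 6.33 to 8.56 FPKM in the libraries labelled LKO and 1.47 to 3.48 FPKM in Flox, which were apart. The log2 fold change was 1.40 ± 0.16 (limma, adjusted p = 1.23e-11), and 0.80 and 0.58 with median-ratio scaling and quantile normalization. Derl2 was the only gene lower there, by -0.37 (limma, adjusted p = 0.000752), and by -1.08 with median-ratio scaling. The summed alveolar macrophage markers given above stood at a median of 8860 FPKM in the same 6 libraries, against 55.7 FPKM in Flox from CT42.

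Other genes of the pathway were counted in 3 lists, to be read against 39.4% of all genes higher and 19.1% lower in LKO over all times. Of 37 other ER folding genes tested, 9 were higher and 13 lower. Of 38 other ERAD genes, 8 were higher and 11 lower. Of 17 regulators of the unfolded protein response, 6 were higher and 6 lower. Without the libraries labelled LKO at CT42 to CT46 these became 8 and 17, 4 and 22, and 4 and 6, against 31.7% and 30% of all genes. In each of the 3 lists 1 gene had 12 h terms in Flox, against 1.78% of all genes: the lectin Mlec with a peak at CT 3.16, the Vcp recruiter Ubxn4 at CT 2.22 and the sensor Atf6b at CT 2.79 (limma, adjusted p = 0.0302, 0.00025 and 0.0161). Among the regulators the smallest p-values were those of Creb3l3, a liver transcription factor held in the ER membrane, with a log2 fold change of -0.39, and of the NF-Y subunits Nfyc and Nfya, at 0.32 and 0.44 (limma, adjusted p = 2.68e-09, 2.32e-07 and 3.71e-06). Without the libraries labelled LKO at CT42 to CT46 they were -0.29, 0.23 and 0.22 in the same order, and all 3 passed (limma, adjusted p = 2.8e-07, 2.11e-05 and 0.000109). By window, Nfya stood at -0.03 from CT0 to CT4, which did not pass (adjusted p = 0.835), and at 1.94 from CT42 to CT46. Nfyc stood at 0.14 (adjusted p = 0.274) and 0.96, and Creb3l3 at -0.30 (adjusted p = 0.023) and -1.08, in the same windows.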

How the data were processed

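RNA of 96 livers was sequenced from total RNA with a stranded mRNA kit, per the labels' protocols. The authors deposited FPKM values per gene symbol; their header names no unit, which was inferred from the numbers and from the programs in the submitters' processing notes (FastQC, Trimmomatic, HISAT2 and Cufflinks, with mm10). Versions of these programs: not given in the sources used here. Absolute depth is unknown, so no counting intervals are given, and 313376 to 498760 FPKM were summed per library. Whether strand was used in counting is not stated, and reads of overlapping genes could not be told apart: Manf, Pdia3, Pdia6, Dnajb11, Txndc5, Txndc11, Syvn1, Derl2, Herpud1, Erlec1, Ppib, Vcp and Ufd1l overlap an antisense gene, and Hsp90b1 and Manf a gene on the same strand, in GENCODE M21.

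Values were analysed as log2(FPKM + 1) over the 9901 genes that averaged 1 FPKM or more. The models were fitted with limma (version 3.58.1, R 4.3.3) using its trend and robust options. All tests were two-sided, with Benjamini-Hochberg adjustment over all 9901 and a threshold of 0.05. The genotype fit held 24 time points and a genotype term, or 1 such term for each of 8 windows. The rhythm fit held a mean and 24 h and 12 h cosine and sine terms per genotype. Fold changes on this scale understate changes of low genes. P-values measure the spread between these libraries. No library was dropped from the values reported unless said. The fits were tested on simulated data. The members and lists were chosen with earlier results of these data known. Named genes are Hspa5, the 4 called members with the largest change each way, the 2 largest each way per window, and the 5 smallest p per period and genotype (4 for a difference), with up to 3 per other list; members beyond these are named to complete a count. The overlapping-range remarks, the share of peaks between CT 1 and CT 5 and the counts of calls by promoter element were chosen after seeing the data. Letters A, B and C mark 44, 48 and 4 libraries. Alternatives covered pseudocount, filter, scaling, left-out libraries, an Rn45s covariate, single days, a trend and 8 h terms.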

Additional observations from a re-analysis of the deposited data

Results flagged for a closer look

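Single libraries stood far from the other 5 of their group in 4 of 56 groups examined, where chance gives about 1 in 20. Hspa5 was at 457 FPKM in the LKO library of CT0 with the letter B, and the next was at 211. In the same library Dnajb9 was at 42.9 FPKM, and the next was at 6.65. Hspa5 was at 669 FPKM in the Flox library of CT26 with the letter C, and the next was at 328. Fkbp2 was at 71.6 FPKM in the Flox library of CT14 with the letter A, and the next was at 54.2.

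The genotype difference was not equal over the 8 windows for 28 of the 38 genes, against 80.6% of all genes. The 24 h terms of Dnajc10 differed between genotypes (limma, adjusted p = 0.0370).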

How the results depend on the processing

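The all-time counts were 8 higher and 9 lower (39.4% and 19.1% of all genes). Lower calls became 22 with median-ratio scaling (35.8% of all genes), 15 with quantile normalization (37%), 5 with Rn45s as a covariate (13.3%), 22 from CT0 to CT22 (44.1%) and 2 from CT24 to CT46 (9.09%), where 16 were higher (56.1%). Without CT42 to CT46 of both genotypes, chosen after seeing the data, they became 15 (30.6%). With a letter left out, higher calls ran from 5 to 9 and lower calls from 2 to 8.

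Summed over windows, 41 higher calls became 23 with median-ratio scaling, 18 without LKO CT42 to CT46, 21 without CT42 to CT46 of both genotypes and 11 from CT0 to CT22. The 49 lower calls became 32 with the Rn45s covariate and 3 from CT24 to CT46. With a letter left out higher calls ran from 17 to 41 and lower calls from 15 to 45. All-gene shares of these summed calls were not computed, so the counts describe the members only. Differences unequal over windows fell to 18 genes without LKO CT42 to CT46 (57% of all genes). They fell to 18 from CT24 to CT46 and to 0 from CT0 to CT22, and ran from 13 to 28 with a letter left out.

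The 12 h calls in Flox became 3 from CT0 to CT22 (0.242% of all genes) and 16 from CT24 to CT46 (21.5%). Without CT42 to CT46 of both genotypes they became 4 (1.19%), and they ran from 0 to 8 with a letter left out. The 12 h calls in LKO became 5 with median-ratio scaling (12.1% of all genes) and 5 with quantile normalization (16.2%). They became 0 from CT0 to CT22 (0.0707%), and 0 without CT42 to CT46 of LKO (0.0404%) or of both genotypes (0.111%). With a letter left out they ran from 0 to 3. From CT24 to CT46 alone the 12 h difference passed for 15 genes (46.8% of all genes). The 24 h calls in Flox ran from 2 to 11 with a letter left out. The 24 h calls in LKO became 11 with quantile normalization, 17 with the Rn45s covariate, 0 from CT0 to CT22 and 15 from CT24 to CT46. They became 3 without CT42 to CT46 of LKO (26.7% of all genes) and 3 without CT42 to CT46 of both genotypes. With a letter left out they ran from 1 to 7. For the other 24 h counts of Flox and LKO under these settings no all-gene share was computed. The 24 h difference became 0 with median-ratio scaling (9.79% of all genes), quantile normalization (10.3%), a linear trend (0.0404%) and CT0 to CT22 alone (0%). It became 0 without CT42 to CT46 of LKO (0.263%) or of both genotypes (0.303%). Without the Flox library of CT42 with the letter B, added after seeing the data, it was 0 (12.6%). From CT24 to CT46 it passed for 12 genes (48.6%), and it ran from 0 to 1 with a letter left out.

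The log2 fold change of Hspa5 turned to 0.062 with the Rn45s covariate and 0.29 from CT24 to CT46. From CT24 to CT46, a span that includes the libraries labelled LKO at CT42 to CT46, those of Dnajc3, Nploc4 and Vcp turned to 0.025, 0.0023 and 0.10. The causes were not tested beyond the libraries left out. A replicate block on the letters gave 9 higher and 8 lower genes over all times (36.7% and 17.9% of all genes). It gave 8 genes with 12 h terms in Flox (1.61%). From CT12 to CT16 it gave 3 higher genes against 5, and from CT36 to CT40 4 against 7. Libraries of the same time and letter were not paired by the labels, and 15 of 44 such pairs had a correlation of deviations over 0.1.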
